A study of Mus musculus with 2 samples.

Results

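Esr1, Pgr, Nr3c1, Fkbp4, Fkbp5, Ihh, Nr2f2, Hand2 and Foxa2, the steroid receptors of the uterus with their co-chaperones and the mediators of progesterone action, were followed in implantation sites of Cbs null and control mice. All probe sets whose gene symbol in the platform annotation equals one of these names were taken, which gave 15 probe sets for 9 genes, of 12393 genes on the array. An implantation site is the piece of pregnant uterus that holds an embryo together with the maternal tissue around it. RNA from such sites was hybridised to Affymetrix mouse arrays, with 1 array for homozygous Cbs null females and 1 array for control females. All females were 4 months old, of a mixed C57Bl/6J and OLA129 background, and at day 8 of pregnancy. Cbs encodes cystathionine beta-synthase, the enzyme that turns homocysteine into cystathionine. The labels used here do not say what genotype the controls carried, whether females or sites were pooled for an array, or what genotype the embryos had.

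Progesterone acts in the uterus through its receptor, encoded by Pgr, in both the epithelium and the stroma beneath it. Epithelial progesterone receptor turns on Indian hedgehog (Ihh), a secreted signal that acts on the stroma, where the nuclear receptor COUP-TFII (Nr2f2) and the transcription factor HAND2 carry progesterone action on, and HAND2 holds back growth factors that would otherwise drive estrogen receptor activity in the epithelium. Foxa2 is the transcription factor of the uterine glands. Steroid receptors fold in a complex with the chaperone HSP90, in which FKBP52 (Fkbp4) favours receptor activity and FKBP51 (Fkbp5) restrains it, and Fkbp5 is itself a gene that progesterone and glucocorticoid receptors switch on.

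Fkbp5 and Fkbp4 encode the related co-chaperones with opposed effects on the receptors, so the 250 bases upstream of each gene's annotated start are shown. Their ratios lay on opposite sides of 0 on these arrays, but the bright Fkbp4 probe set was near 0, at a log2 ratio of 0.11. The sequences are from RefSeq on GRCm38.p6, both on the minus strand, at chr17:28486150-28486399 for Fkbp5 and chr6:128438657-128438906 for Fkbp4. Capitals mark matches on either strand to the GC box GGGCGG, the CCAAT box, and the core of a heat shock element, GAANNTTC.
Fkbp5: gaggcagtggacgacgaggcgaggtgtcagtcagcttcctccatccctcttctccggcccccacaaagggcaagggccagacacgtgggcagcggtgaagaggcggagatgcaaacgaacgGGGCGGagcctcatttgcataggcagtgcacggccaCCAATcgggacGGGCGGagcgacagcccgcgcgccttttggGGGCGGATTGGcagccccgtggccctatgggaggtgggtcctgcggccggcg
Fkbp4: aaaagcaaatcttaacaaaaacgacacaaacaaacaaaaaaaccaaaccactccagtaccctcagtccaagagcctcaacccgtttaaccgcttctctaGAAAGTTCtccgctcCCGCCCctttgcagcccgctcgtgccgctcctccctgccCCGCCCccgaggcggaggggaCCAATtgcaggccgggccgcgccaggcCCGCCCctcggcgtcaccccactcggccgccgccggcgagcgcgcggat

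Both windows were rich in G and C, at 68% for Fkbp5 and 63.2% for Fkbp4. The GC box matched 3 times in each, against 32.7% of all 32851 upstream windows of this length with at least 1 match. The CCAAT box matched 2 times in Fkbp5 and 1 time in Fkbp4, with 33.8% of all windows holding it, and in Fkbp5 the last GC box directly adjoins a CCAAT box on the other strand. The heat shock core matched in Fkbp4, as in 6.69% of all windows, and not in Fkbp5, and TATAAA (12.4%) matched in neither. Of the 9 genes, 8 had an entry, with 11 windows in all. None of the 11 held TGTTCT, an arm of the element that progesterone and glucocorticoid receptors bind (16.1% of all windows), or TGACC, an arm of the estrogen response element (35.2%), which says only that these letters are not in these windows.

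The deposited value of a probe set is its signal, an intensity on a linear scale. A floor of 14.3 was set, the 25th percentile over the 2 arrays together, and lower signals were given that value; a probe set passed the filter where its mean signal reached 70.5, the median over all probe sets. Neither genotype was replicated and no test was made, so each log2 ratio of Cbs null over control describes these 2 arrays, and their number limits the precision. As a measure of scatter, each ratio was set beside the central 95% of ratios in its own bin of like signal, 1 of 10 equal bins of all probe sets by mean signal, a range that holds real differences as well as noise. Signals of different probe sets are not set against each other. The median signal over all probe sets was 71.4 on the Cbs null array and 68.8 on the control array. Cbs itself gave 23.8 and 22.3 on the Cbs null array and 30.3 and 29.9 on the control array, too dim to check the genotype. The decidual hormone gene Prl8a2, picked after its values were seen, read 3633.6 and 2542.7, and the smooth muscle actin gene Acta2 read 7962.8 and 7868.8, on the Cbs null and control arrays in that order, so tissues of a day 8 implantation site were present on both.

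No probe set of these genes that passed the filter was 1.5-fold apart between the genotypes. The 9 probe sets that passed belong to Nr3c1, Fkbp4, Fkbp5, Nr2f2 and Hand2, and each of the 9 was above the filter on both arrays. None was at least 1.5-fold higher in Cbs null sites, against 2.61% of all 11315 probe sets that passed, and none was at least 1.5-fold lower, against 1.65%. Their ratios ran from -0.45 to 0.34, with 5 above 0 and 4 below, and the median was 0.04. Taking the brightest probe set of each of the 5 genes, the median was also 0.04, beside 0.02 over all 7079 genes that passed. All 15 ratios, dim probe sets included, lay inside the range of probe sets of like signal.

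**Figure D1:**
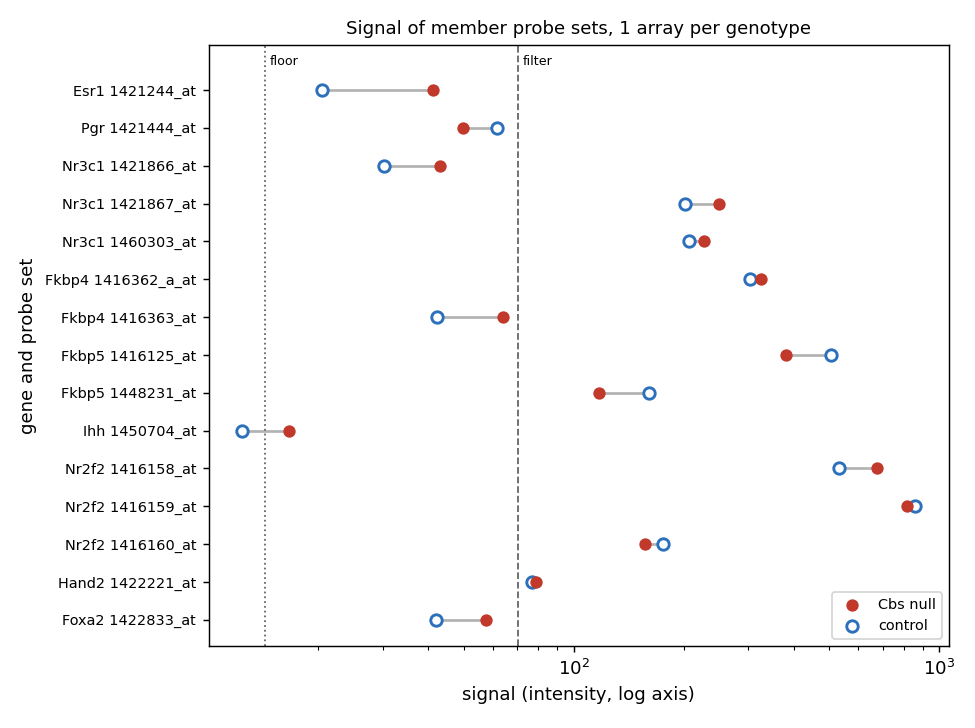
Signal of each of the 15 probe sets on a log axis, with filled points for the Cbs null array and open points for the control array; the dotted line is the floor of 14.3 and the dashed line the filter of 70.5. The 9 probe sets right of the filter have close pairs, and both Fkbp5 probe sets have the Cbs null point to the left.

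Of the receptors, Nr3c1, the glucocorticoid receptor, was the only gene with probe sets above the filter. Its brightest probe set read 249.3 on the Cbs null array and 201.4 on the control array, a log2 ratio of 0.31. The second read 227.1 in Cbs null and 207.0 in control, a log2 ratio of 0.13. The third, below the filter, read 43.1 in Cbs null and 30.3 in control, a log2 ratio of 0.51. All 3 were higher on the Cbs null array, while the 2 bright ones lay within the range of -0.45 to 0.54 at like signal.

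Esr1, estrogen receptor alpha, and Pgr were dim on both arrays. The single Esr1 probe set read 41.2 on the Cbs null array and 20.5 on the control array, a 2.01-fold higher signal with a log2 ratio of 1.01. At like signal 95% of ratios ran from -1.11 to 1.16. With a floor at the 40th percentile the log2 ratio of Esr1 was 0.057, and with a pseudocount of 16 it was 0.65. The single Pgr probe set read 49.9 on the Cbs null array and 61.6 on the control array, a log2 ratio of -0.30 within a range of -0.74 to 0.97. Neither gives a usable size for a difference in receptor transcript, and a low signal of 1 probe set does not show that the transcript was scarce.

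The co-chaperone Fkbp5 was lower on the Cbs null array in both of its probe sets. The brighter read 381.8 in Cbs null and 504.6 in control, 1.32-fold lower, with a log2 ratio of -0.40. The other read 117.5 in Cbs null and 160.2 in control, 1.36-fold lower, with a log2 ratio of -0.45. The pair differed by only 0.04 on the log2 scale, where the difference between the brightest pair of probe sets of a gene had an SD of 0.30 over 2284 genes. Each ratio was near the lower edge of its range at like signal, -0.45 and -0.53. Of the 3 member genes with several probe sets above the filter, Fkbp5 was the only one with all of them at least 1.2-fold lower, against 2.71% of the 2284 such genes, and none had all of them 1.2-fold higher, against 2.98%, a limit chosen after the values were seen. Over all genes that passed the filter, 269 (3.80%) had a ratio as low as the brighter Fkbp5 probe set or lower.

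Fkbp4, the co-chaperone that favours progesterone receptor activity, did not show the same sign. Its bright probe set read 325.8 on the Cbs null array and 302.9 on the control array, a log2 ratio of 0.11. Its dim probe set read 64.1 in Cbs null and 42.3 in control, 1.52-fold higher with a log2 ratio of 0.60, inside a range of -0.74 to 0.97. The 2 probe sets thus differed by 0.49 on the log2 scale.

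**Figure D2:**
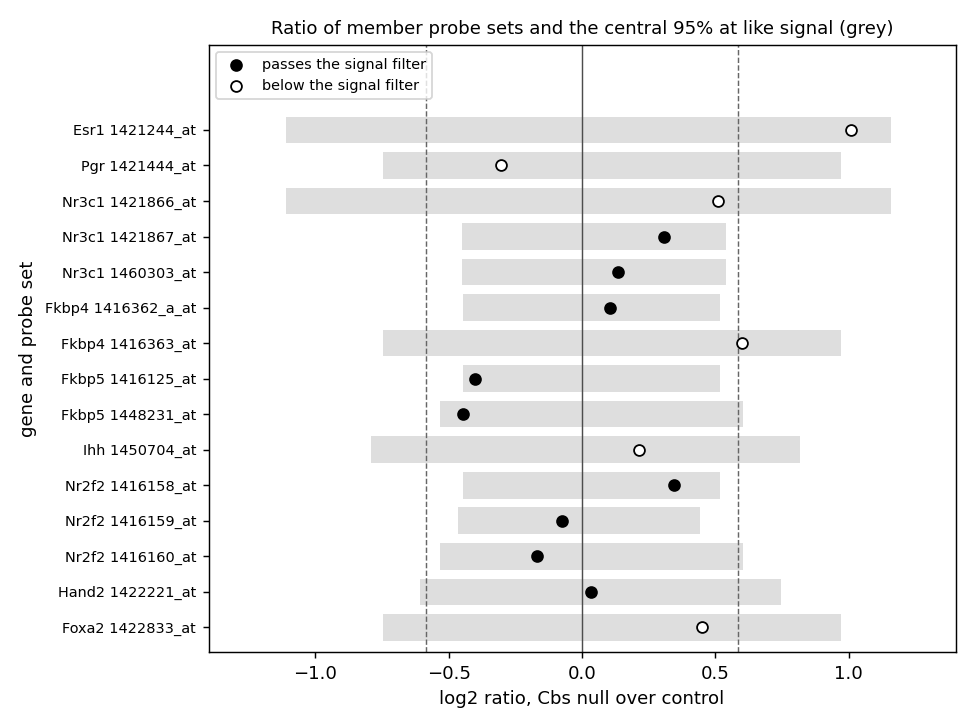
Log2 ratio of Cbs null over control for each of the 15 probe sets, filled where the probe set passed the signal filter and open where it did not; grey bars are the central 95% of ratios at like signal and dashed lines mark 1.5-fold. Every point lies on its grey bar, and the open points at the right are Esr1 and the dim probe set of Fkbp4.

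The mediators downstream of the progesterone receptor showed no shared direction. Nr2f2, which encodes the stromal receptor COUP-TFII, had 3 probe sets above the filter. Its brightest read 815.7 on the Cbs null array and 859.3 on the control array, a log2 ratio of -0.08. The second read 673.6 in Cbs null and 531.0 in control, a log2 ratio of 0.34. The third read 156.3 in Cbs null and 175.7 in control, a log2 ratio of -0.17. The probe sets of this one gene were 0.51 apart on the log2 scale and disagreed in sign, so no direction is given for Nr2f2. Of 2284 genes with several probe sets above the filter, 54.0% had all of them of the same sign, and 2 of the 3 member genes did (Nr3c1 and Fkbp5).

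Hand2, the stromal factor that opposes growth factor signals to the epithelium, read 79.0 on the Cbs null array and 77.1 on the control array, a log2 ratio of 0.04 that was below 0 with median scaling (-0.02), quantile normalization (-0.01) and loess. Foxa2 was below the filter, at 57.5 on the Cbs null array and 42.1 on the control array, a log2 ratio of 0.45 in a range of -0.74 to 0.97. Ihh was near the floor, at 16.6 on the Cbs null array and 12.4 on the control array, where the control value is under the floor and no fold is given. In the uterus these 2 genes are made in epithelium, whose marker genes were higher on the Cbs null array, but a site also holds an embryo. Of 11 epithelial markers measured, 9 had a ratio above 0, with a median of 0.39 and a summed signal over 13 markers of 5062.9 in Cbs null and 3732.1 in control, none of them under the floor on both arrays. The parts of epithelial content and of the embryo in the Foxa2 and Ihh values were not tested. In whole tissue more cells of a type cannot be told apart from more RNA per cell.

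Counting all 6 probe sets below the filter, 2 were at least 1.5-fold higher on the Cbs null array, those of Esr1 and Fkbp4, and none was 1.5-fold lower. Among all 5638 probe sets below the filter whose mean reached the floor, 11.5% were 1.5-fold higher and 9.29% lower, and 3.0% were 2-fold higher and 2.15% lower. Of the 6, Esr1 alone was past 2-fold. Pgr was the dim probe set with a ratio below 0.

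The partners and the machinery of the receptors also lay close to 1:1 by the brightest probe set of each gene. Of 10 other receptors on the array, 5 were measured, none 1.5-fold apart, against 2.47% of all 7079 genes at least 1.5-fold higher and 1.33% lower. Their median was 0.14, with the membrane progesterone-binding proteins Pgrmc1 at 0.01 and Pgrmc2 at 0.19. Of 17 listed genes of the HSP90 chaperone machinery, 14 had a probe set assigned to a single gene, and all 14 were measured. Hsp90ab1, Ptges3 and Ppid had none and are not covered. Of the 14, 10 had a ratio below 0, with a median of -0.08 and none past 1.5-fold in its brightest probe set. Ppp5c, a phosphatase of the complex picked after its values were seen, had 0.20 there and from -0.51 to 0.81 over its 3 probe sets. Hsp90aa1, the inducible HSP90 that holds the receptors, had -0.17 and as low as -0.51 over its 3 probe sets. Hspa8, the constitutive HSP70 relative, had -0.01 and as low as -0.39 over its 4 probe sets. Of the receptor coregulators 11 were measured, 8 above 0, with a median of 0.07 and none past 1.5-fold. The coactivator Ncoa4 had 0.07 and Phb2, a repressor of estrogen receptor activity, had 0.02.

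Target genes of the pathway had list medians near 0, with single genes apart. Of 17 measured progesterone responsive genes 9 were above 0 and 8 below, with a median of 0.00. Bmp2, a growth factor of the decidua, read 258.0 on the Cbs null array and 597.0 on the control array, 2.31-fold lower. Fst, follistatin, which binds activin, read 1071.8 in Cbs null and 1838.3 in control, 1.72-fold lower. Il13ra2, a receptor that captures interleukin 13, read 123.8 in Cbs null and 70.2 in control, 1.76-fold higher, and passed the filter through its Cbs null value. Hoxa10 and Wnt4, which act with progesterone in decidualization, had 0.02 and 0.03 and were picked after their values were seen.

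Of 15 measured estrogen responsive genes 8 were above 0, with a median of 0.07. The secreted epithelial proteins Lcn2 and Ltf were 2.06-fold and 1.91-fold higher, and Padi2, which converts arginine to citrulline in proteins, was 1.59-fold lower. All 18 glucocorticoid responsive genes were measured, with 9 above 0, 9 below and a median of 0.02. Lcn2, which is also in that list, was the only one past 1.5-fold in its brightest probe set. It rests on a single probe set, with an ID of a kind that may match several transcripts, of the same gene or of others. Without such probe sets no glucocorticoid responsive gene and 1 estrogen responsive gene was 1.5-fold higher. Tsc22d3, a classic target of the glucocorticoid receptor, read 774.0 on the Cbs null array and 819.8 on the control array, and Per1, a clock gene that glucocorticoids induce, read 146.7 in Cbs null and 150.2 in control. These log2 ratios were -0.08 for Tsc22d3, with probe sets from -0.15 to 0.25, and -0.03 for Per1, beside -0.40 for Fkbp5. Sgk1, a kinase induced by corticosteroids, had -0.31 in its 1 probe set. Klf9, a factor induced by glucocorticoids, had 0.34, and from 0.28 to 0.62 over its 6 probe sets above the filter. Tsc22d3, Per1, Sgk1 and Klf9 were picked after their values were seen.

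Hedgehog pathway genes stood near 1:1. Of 12 on the array 6 were measured, 5 of them above 0, with a median of 0.13 and none past 1.5-fold in its brightest probe set. Gas1, a hedgehog-binding surface protein, had 0.01 and Smo, the signal transducer of the pathway, had 0.39, with 0.67 in its other probe set. Boc, the measured gene below 0, had -0.09, with -0.68 in its other probe set. Ptch1, the hedgehog receptor and a common readout of the pathway, read 221.3 on the Cbs null array and 213.6 on the control array. Shh, Hhip and Cdon were under the floor on both arrays. Of the stromal fibroblast growth factors and receptors placed downstream of Hand2, 4 of 9 were measured, with a median of 0.03. They were Fgf7 and the receptors Fgfr1, Fgfr2 and Fgfr3, the last passing the filter only through its control value. The other growth factors of the list were not measured. Fgf9, Fgf10 and Fgf18 were under the floor on both arrays. Below the filter, Fgf1 read 43.7 in Cbs null and 34.6 in control, and Fgf2 read 21.5 in Cbs null and 12.6 in control. The receptors Fgfr1 and Fgfr2 had 0.03 and 0.13, and in their other probe sets 0.33 and -0.25. Ptch1 and Boc were picked after their values were seen.

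Some gland genes were far apart between the arrays. Of 9 genes on the array in a list built around Foxa2-dependent glands, 5 passed the filter and 4 did not, and 3 of the 5 were above it on both arrays. Those 3 were at least 2-fold higher on the Cbs null array, as were 0.622% of all genes, while 0.283% were at least 2-fold lower. The list was chosen with earlier results of these data known, so this count is no test of it. Spink1, a trypsin inhibitor, was 8.72-fold higher, and the implantation serine proteinases Prss28 and Prss29 were 7.28-fold and 3.43-fold higher. Ttr, at 3.44-fold, and Calb1, at 2.20-fold, passed the filter only through their Cbs null value, so their ratios were bound to be high. Of the 4 below the filter, Sox9 read 56.3 in Cbs null and 32.3 in control, and Cxcl15 read 20.1 in Cbs null and 30.2 in control, a log2 ratio of -0.59. Lif was near the floor, at 14.7 in Cbs null and 12.7 in control, and Foxa1 was under it on both arrays. With no filter the list median was 1.14. Foxa2 itself, with a log2 ratio of 0.45 in 1 dim probe set, was not apart beyond the scatter at its signal. Epithelial markers had a median of 0.39 on the same arrays, and their part in the gland values was not tested.

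**Figure D3:**
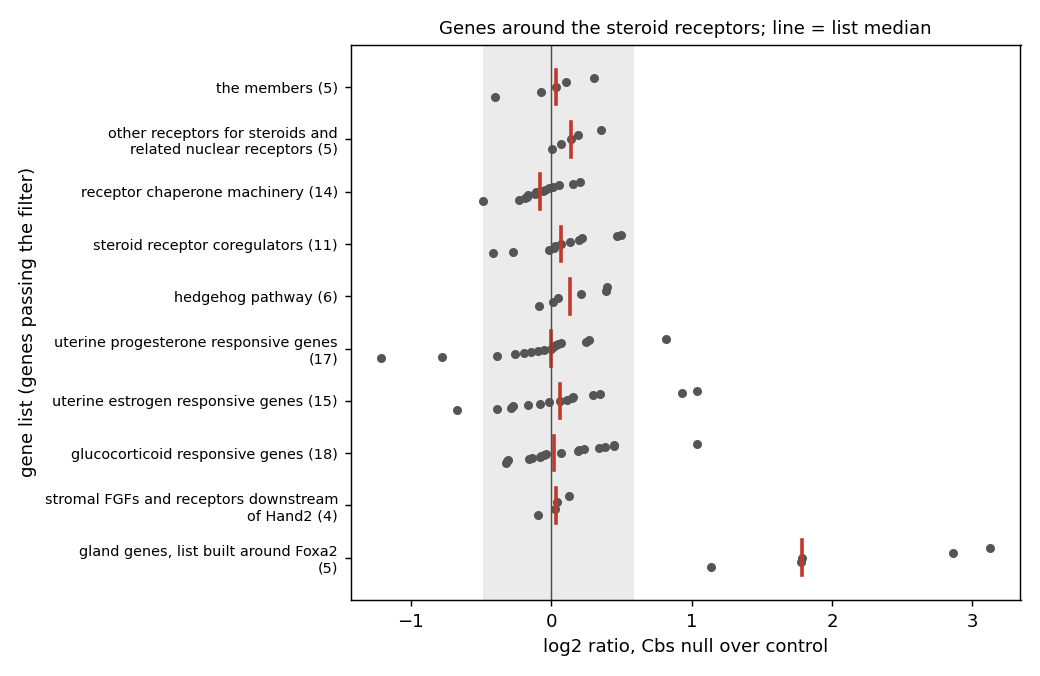
Log2 ratio of Cbs null over control for the measured genes of each list, with 1 point per gene, a red line at the list median and a grey band for the central 95% of all 7079 genes, -0.48 to 0.58. The 5 member genes and the receptor, chaperone, coregulator and hedgehog lists sit on or at the edge of the band. The 5 gland genes that passed the filter sit to the right of it, but Ttr and Calb1 passed only through their Cbs null value. The 4 gland genes below the filter are not drawn.

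Other cell types of the site differed between the arrays beside these values. Markers of decidual stroma, cells in which Pgr, Nr2f2, Hand2 and Fkbp5 act, had a median of -0.02 over 8 genes, 4 above 0 and 4 below. Their summed signal over 10 genes was 11863.5 in Cbs null and 13597.0 in control. Gja1, picked after its values were seen, gave the largest part of that sum on both arrays. Its 6 probe sets above the filter ran from -0.52 to 1.38, so the sum depends on the probe set used. Bmp2 and Tdo2 were 2.31-fold and 1.79-fold lower, and Prl8a2 was 1.43-fold higher. Smooth muscle markers had a median of -0.01 over 8 genes. Natural killer cell markers had a median of -1.04 over 8 genes and a summed signal over 9 of 6207.9 in Cbs null and 13817.9 in control. Of these, Il2rb passed the filter only through its control value, and the median over the 7 above it on both arrays was -1.13. Ncr1, below the filter, went the other way, at 67.5 in Cbs null and 56.4 in control. Macrophage markers had 0.48 over 10 genes, fat cell markers 0.72 over 5, trophoblast markers 1.23 over 3 (2 of which passed only through the Cbs null value) and 0.11 over all 7 on the array with no filter, and ovary and oviduct markers 0.36 over 3. Lep of the fat cell list and Fshr of the ovary list were under the floor on both arrays. The part of these cell types in the Fkbp5 and Nr3c1 values was not tested.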

How the data were processed

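Each array has 1 deposited intensity per probe set, linear in scale. Per the submitters' processing notes the authors used GCOS 1.4. Its algorithm, detection calls and a genome build are not stated in these sources. Of 22690 probe sets, 64 controls were left out. The platform annotation gave a single gene for 20380, of which 20351 matched a RefSeq gene by identifier. No further scaling was applied. Values under 14.3 were raised to it, and probe sets passed with a mean signal of at least 70.5. That left 11315 probe sets and 7079 genes, each gene shown by its brightest probe set. The rule for named genes took all member probe sets, and from each list up to 5 genes that were 1.5-fold apart, and the 2 brightest of a list that had no such gene. Genes are otherwise named as later picks. Members, lists and limits were chosen with earlier results of these data known. Computation used Python 3.11.15, numpy 2.4.6, pandas 2.3.3 and statsmodels 0.14.6, and the scripts were tested on simulated data. No test was possible with 1 array per genotype.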

Additional observations from a re-analysis of the deposited data

How the results depend on the processing

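Gene and list results were recomputed under up to 11 alternatives of scaling, floor, filter and choice of probe set, and member ratios under the 6 of scaling and floor. A value was taken as moved where it differed by more than 0.30, the SD between probe sets of a gene, and a count where it differed by over 1.5 times. Of 90 recomputed member ratios 87 did not move. Fkbp5 stayed between -0.50 and -0.39 in its 2 probe sets. With a floor at the 40th percentile Esr1 was 0.057 and the dim Nr3c1 probe set 0.12, and with a pseudocount of 16 Esr1 was 0.65. The 2 member probe sets 1.5-fold higher became 1 with quantile normalization, median scaling, loess, the higher floor or the pseudocount, and the 1 that was 2-fold higher became 0 with each of these except loess. With the filter at the 25th percentile or none, 9 member genes were measured and 1, Esr1, was 1.5-fold higher. Counts over all genes, 175 higher and 94 lower by 1.5-fold and 44 and 20 by 2-fold, were 499, 357, 149 and 79 with the filter at the 25th percentile. They were 507, 365, 149 and 79 with none, and 62, 36, 23 and 8 at the 75th. The count 2-fold lower was 13 with a pseudocount. Of 1001 values of lists and named genes 975 did not move. Of 728 recomputed log2 values 30 changed sign, all with a main size of at most 0.13. They included Hand2 and the median over member genes, both -0.02 with median scaling. No value past 1.5-fold changed sign. The count of natural killer cell markers 1.5-fold lower was 4 in place of 7 without probe sets whose IDs mark them as possibly matching several transcripts. That setting gave 1 receptor chaperone gene 1.5-fold higher in place of 0, and 1 hedgehog pathway gene in place of 0. It also gave 0 glucocorticoid responsive genes in place of 1, and 1 estrogen responsive gene in place of 2. The gland list had 3 genes higher in place of 5 with the filter at the 75th percentile, and 1 gene lower in place of 0 at the 25th percentile or with none. Its median of 1.78 was 1.14 with no filter, and the trophoblast median of 1.23 was 0.46 at the 25th percentile and 0.11 with none. No paired analysis was possible because each genotype has 1 array. Dim signal limits Esr1, Pgr, Ihh and Foxa2, whose probe sets lay below the filter.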

Other observations

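Fkbp5 is the only one of the 9 genes on mouse chromosome 17, which also carries Cbs. The annotated starts of the genes are 3.15 Mb apart on GRCm38.p6, with 49 protein-coding genes between them in RefSeq. Of these, 18 were measured, 11 with a ratio above 0 and 7 below, with a median log2 ratio of 0.07 beside 0.02 over all genes. None was 1.5-fold apart in either direction, against 2.47% of all genes higher and 1.33% lower. The lowest was Pim1, a serine and threonine kinase, at -0.52, followed by Tff1, a secreted trefoil peptide, at -0.41. These 2 of the 18 were as low as the brighter Fkbp5 probe set or lower, against 3.80% of all genes that passed the filter. The labels give a mixed background and not the strain of the DNA around Cbs, so loss of Cbs and linked alleles cannot be told apart in these values. Pim1 and Tff1 were picked after their values were seen.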
